A study of Mus musculus with 6 samples.

Results

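The chemokines and their receptors were followed in RNA from 6 mouse aortic roots, the first part of the aorta with the aortic valve and adjoining heart muscle. Members were all rows of the deposited count table whose symbol is that of a chemokine (Ccl, Cxcl, Cx3cl1, Xcl1) or a chemokine receptor (Ccr, Cxcr, Cx3cr1, Ackr) and whose counts summed to at least 10 over the 6 libraries. This gave 47 members of 23420 rows: 30 ligands and 17 receptors. Another 9 rows matched by symbol but fell below the minimum, the nearest being Cxcl3 with 5 counts in all, while Ccl1 with 12 and Cxcl17 with 16 were just above it. By label, 3 roots came from mice with both Sost copies knocked out (Sost-/-, called KO 1 to 3) and 3 from wild-type mice (Sost+/+, called WT 1 to 3). All mice were on a C57BL6/J background, 12 months old, and fed a high-cholesterol diet for 8 months from the age of 4 months, so no root represents a normal diet. The labels name neither the Sost allele nor the sex, and do not say whether each root came from a separate animal, so the p-values cover only differences among these 6 roots.

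Chemokines are small secreted proteins that bind to matrix glycosaminoglycans and guide leukocytes along their gradients through receptors coupled to inhibitory G proteins. Their names follow the spacing of the first cysteines (CC, CXC, CX3C and XC), and most inflammatory chemokines share receptors. In arteries and valves of hyperlipidaemic mice they are known for the recruitment of monocytes and T cells, while Cxcl12 and Cx3cl1 are also made by vascular cells at rest. Atypical receptors bind chemokines without signalling through G proteins and remove them. In whole tissue, fewer cells of a type and less RNA per cell cannot be told apart.

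Counts summed over genes were 38870673 to 41803775 in KO and 37023586 to 48172863 in WT libraries. Levels are in CPM, the usual depth-corrected count, with library sizes scaled by TMM, edgeR's trimmed mean method. Sost, the targeted gene, was at 53.4, 26.2 and 12.2 CPM in the libraries labelled Sost-/-, against 7.94, 15.8 and 7.52 CPM in those labelled Sost+/+ (log2 fold change 1.56, SE 0.48, edgeR adjusted p = 0.124). The groups overlapped, since KO replicate 3 lay below WT replicate 2, and the log2 fold change was 0.88 without KO replicate 1. The target gene goes against the labels, and whether its counted exons lie in the deleted part is not given. KO and WT stand below for the labels alone. The tissue differed as well, with 8 of 11 smooth muscle markers called higher and 2 of 12 cardiomyocyte markers (Csrp3 and Nppb) called lower by edgeR. Over all tested genes 2.18% were called higher and 0.371% lower. The summed level of the smooth muscle markers was 3988 to 6072 CPM in KO and 1362 to 2656 CPM in WT libraries. That of the cardiomyocyte markers was 54103 to 67331 CPM in KO and 80406 to 87438 CPM in WT libraries. Blood endothelial (882 to 1200.4 CPM in KO, 1038 to 1184 CPM in WT) and fibroblast markers (4426 to 5339 CPM in KO, 4001 to 4323 CPM in WT) were present in every library. The part of this makeup in the results below was not tested.

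Of the 47 members, 36 passed the filter on low counts and were tested, 26 ligands and 10 receptors. A single member passed edgeR's test with Benjamini-Hochberg adjustment over all 15096 tested genes: Cxcl14, which fell. This is 1 of 36, where 2.55% of all tested genes were called, 2.18% higher and 0.371% lower, and 0 members were called higher. The same member was the 1 called by limma-voom, where 2.35% of all genes were called (2.01% higher and 0.338% lower). DESeq2 called Cxcl14 and Xcl1, both lower, and 0 members higher, of 38 with an adjusted p, where 7.61% of all genes were called (4.95% higher and 2.66% lower). At an unadjusted p under 0.05 in edgeR there were 7 members, 19.4% of those tested against 20.2% of all genes. Of these, Xcl1, Cxcl14, Cxcl9, Cxcl10 and Cx3cr1 had lower values in KO libraries (13.9% of tested members, against 8.62% of all genes), and Cxcl1 and Ccl24 higher ones (5.56%, against 11.6%). The 3 libraries of either group did not overlap for Xcl1, Cxcl14 and Cxcl1, 8.33% of the tested members against 25.4% of all tested genes (14.3% higher and 11.1% lower). The median log2 fold change was -0.03 over the ligands and -0.12 over the receptors, against 0.01 over all tested genes. Over all 36 tested members it was -0.06, and its sign depended on the libraries and the scaling: it was 0.06 without WT replicate 3, 0.03 without KO replicate 1 and 0.06 with library size alone, against -0.22 without WT replicate 2.

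**Figure D1:**
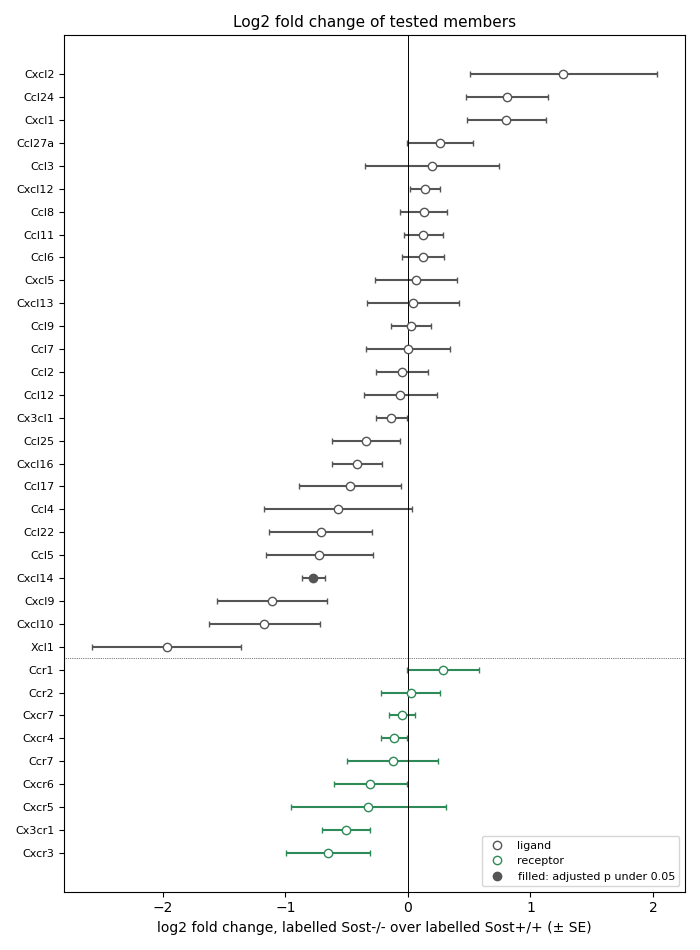
Log2 fold change of 35 of the 36 tested members (x axis, libraries labelled Sost-/- over libraries labelled Sost+/+, bars ± SE from edgeR), ligands above and receptors below the dotted line, each ordered by value. Cxcl14 is the filled point at -0.77 with a short bar, while Xcl1, Cxcl10 and Cxcl9 lie further left with longer bars.

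Cxcl14 encodes a CXC chemokine made at rest by epithelia and stromal cells, and lies on chromosome 13 from 56288643 to 56296551, minus strand (mm10, annotation GENCODE M21). It was at 27.7, 25.9 and 28.9 CPM in KO libraries (1185, 1050 and 1210 counts), against 42.7, 51.0 and 47.0 CPM in WT libraries (1906, 2004 and 1714 counts). Every KO library lay below every WT library, and both groups were tight, at 27.5 ± 1.498 CPM in KO and 46.9 ± 4.12 CPM in WT libraries (SD, n = 3 each). The log2 fold change was -0.77 (SE 0.09, edgeR adjusted p = 0.0119). Among tested members Cxcl14 had the second smallest spread between libraries of a group, 0.105 on the log2 scale, after the receptor gene Cxcr4 with 0.0681. The adjusted p was 0.0582 without WT replicate 1 and 0.0512 without KO replicate 3, with log2 fold changes of -0.85 and -0.81. It passed with any of the other 4 libraries left out.

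The 250 bases before the start of Cxcl14 are shown because it was the called member, and those of Cxcl10, Cxcl9 and Cxcl1 because these are the other CXC ligands with an unadjusted p under 0.05 and are known targets of interferon or NF-kappaB. Sequences are from RefSeq (GRCm38.p6), 5′ to 3′ on the strand of the gene: Cxcl14 chr13:56296552-56296801 (minus), Cxcl10 chr5:92348890-92349139 (minus), Cxcl9 chr5:92328080-92328329 (minus) and Cxcl1 chr5:90890995-90891244 (plus). Capitals mark matches on either strand to 4 motifs: the core of the interferon-stimulated response element (ISRE, GAAA then 2 free bases then GAAA), the STAT type (TTCNNNGAA), an NF-kappaB type (GGG, 2 free bases, TT, 1 free base, CC) and the TATA box (TATAAA).
Cxcl14: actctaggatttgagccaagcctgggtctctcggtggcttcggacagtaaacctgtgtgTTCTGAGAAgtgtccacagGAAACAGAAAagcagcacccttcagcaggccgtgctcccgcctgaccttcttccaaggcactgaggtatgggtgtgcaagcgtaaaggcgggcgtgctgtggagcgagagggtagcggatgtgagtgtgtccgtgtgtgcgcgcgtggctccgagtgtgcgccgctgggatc
Cxcl10: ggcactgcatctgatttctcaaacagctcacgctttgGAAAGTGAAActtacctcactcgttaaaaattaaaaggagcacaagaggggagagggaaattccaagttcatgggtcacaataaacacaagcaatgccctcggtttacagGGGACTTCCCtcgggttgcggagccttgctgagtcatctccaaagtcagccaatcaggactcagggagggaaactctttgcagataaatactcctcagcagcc
Cxcl9: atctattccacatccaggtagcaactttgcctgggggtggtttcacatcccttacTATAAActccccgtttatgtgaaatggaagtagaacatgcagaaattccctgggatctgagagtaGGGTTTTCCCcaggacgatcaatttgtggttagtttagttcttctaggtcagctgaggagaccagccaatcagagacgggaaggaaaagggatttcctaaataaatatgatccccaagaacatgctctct
Cxcl1: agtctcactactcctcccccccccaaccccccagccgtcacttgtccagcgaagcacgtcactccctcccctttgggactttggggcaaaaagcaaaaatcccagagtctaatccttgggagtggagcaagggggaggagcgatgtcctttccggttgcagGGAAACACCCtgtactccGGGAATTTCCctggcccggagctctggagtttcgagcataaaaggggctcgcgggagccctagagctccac

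Cxcl14 held the ISRE core and the STAT type, starting 172 and 191 bases before the start site. Cxcl10 held the ISRE core at 213 and the NF-kappaB type at 103 bases. In Cxcl9 the NF-kappaB type lay 130 and the letters TATAAA 195 bases before the start, and Cxcl1 held the NF-kappaB type at 89 and 71 bases. No 2 matches in these windows overlap. Over all 32851 promoter windows of 250 bases, the ISRE core was found in 2.98%, the STAT type in 7.02% and the NF-kappaB type in 4.11%. The letters TATAAA, at any place in the window, were found in 12.4%. Of 37 windows, which belong to the 33 members matched, 2 held the ISRE core (5.41%), 3 the STAT type (8.11%), 7 the NF-kappaB type (18.9%) and 9 the letters TATAAA (24.3%). The motifs were chosen with these sequences in view. A match is a description of the letters and shows no binding.

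Levels were ordered by the mean of the 6 libraries, per kilobase of the joined exons of a gene. The order rests on these lengths, 8176 bases for Cxcl12 and 511 for Ccl8, while the annotation used in counting is not given. By CPM alone, Cxcl12 was at a mean of 303 and Ccl8 at 18.4 over the 6 libraries. Cxcl12 led at 38.9 ± 2.71 in KO and 35.2 ± 5.34 CPM per kilobase in WT libraries (SD, n = 3 each), followed by Ccl8 (37.7 ± 8.53 in KO, 34.5 ± 6.66 in WT), the receptor Cxcr7 (34.8 ± 3.88 in KO, 35.9 ± 3.04 in WT) and Ccl6 (36.7 ± 9.55 in KO, 33.8 ± 1.56 in WT). The order of these 4 differed between the groups, with Cxcr7 first in WT libraries and last of the 4 in KO libraries. Cxcl14 came next over the 6 libraries, at 15.05 ± 0.820 in KO and 25.7 ± 2.25 CPM per kilobase in WT libraries. The lowest tested member, the B cell chemokine receptor gene Cxcr5, was at 0.148 ± 0.0802 in KO and 0.189 ± 0.159 CPM per kilobase in WT libraries. Cxcr5 shares 110 bases of exon with Bcl9l on the other strand, a gene at 37.0 to 56.2 CPM, so its counts are uncertain. The ranges of the 6 libraries, pooled over both groups, overlapped for all 35 pairs of neighbours in this order. Within a group, neighbours could still stand apart, as Ccl6 and Cxcl14 did in KO libraries (36.7 ± 9.55 against 15.05 ± 0.820). Values within each library were not compared.

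**Figure D2:**
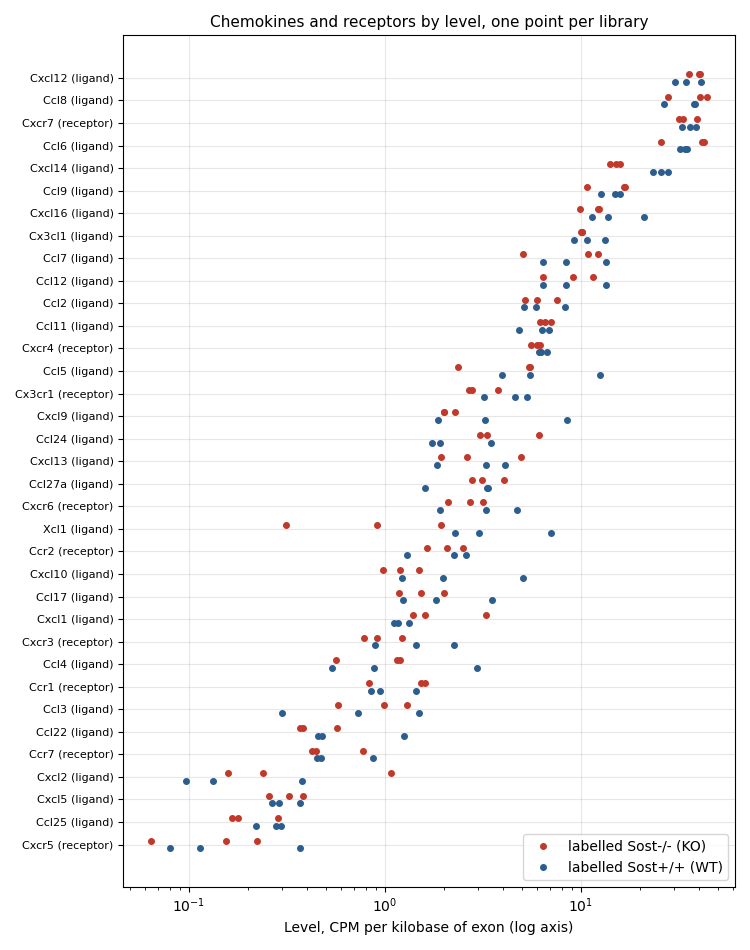
Level of 35 of the 36 tested members in CPM per kilobase of exon (log axis), 1 point per library, red for KO above blue for WT in each row, ordered by the mean. Cxcl12, Ccl8, Cxcr7 and Ccl6 lie at the top near 35, Cxcr5 at the bottom, and the red and blue points of Cxcl14 are apart.

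Cxcl12 guides and retains progenitor cells and lymphocytes through Cxcr4, and is taken up by the atypical receptor that the table lists as Cxcr7 (Ackr3). Cxcl12 was at 329, 292 and 332 CPM in KO libraries, against 248, 335 and 282 CPM in WT libraries. The groups overlapped, with a log2 fold change of 0.14 (SE 0.12, edgeR adjusted p = 0.560). Cxcl12 alone took 51.6% ± 5.25 of the summed ligand CPM in KO and 46.1% ± 6.25 in WT libraries (SD, n = 3 each). This share is not corrected for length, and Cxcl12 has 8176 exon bases. Per kilobase, Cxcl12, Ccl8 and Ccl6 were close, at means of 37.1, 36.1 and 35.2 CPM per kilobase over the 6 libraries. Cxcr7 was at 131, 111 and 107 CPM in KO libraries and at 120.3, 110.0 and 130.3 CPM in WT libraries (log2 fold change -0.05, SE 0.11). The groups overlapped. Cxcr4 was at 10.8, 10.1 and 11.2 CPM in KO and 11.4, 11.1 and 12.2 CPM in WT libraries (-0.11, SE 0.11). The atypical receptors that the table lists by older symbols are not members by the rule. Of these, Darc (Ackr1, of venules and red cells) was at 1.098, 0.8635 and 1.504 CPM in KO and 1.009, 1.221 and 0.8784 CPM in WT libraries. Ccbp2 (Ackr2, a scavenger of CC chemokines) was at 7.45, 7.75 and 7.33 CPM in KO and 6.41, 9.49 and 8.73 CPM in WT libraries. The groups overlapped for both. Ccrl1 (Ackr4, a scavenger of the lymphoid chemokines) was at 9.32, 12.8 and 12.5 CPM in KO and 10.2, 8.27 and 8.89 CPM in WT libraries, with WT replicate 1 within the KO range. It had the smallest p of the 3 (log2 fold change 0.34, SE 0.15, edgeR adjusted p = 0.256).

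The membrane-bound chemokines are each tied to a single receptor. Cx3cl1 (fractalkine) was at 39.9, 39.8 and 39.3 CPM in KO libraries, against 36.4, 42.2 and 52.1 CPM in WT libraries (log2 fold change -0.13, SE 0.12). The KO libraries lay within the range of the WT libraries. Its receptor Cx3cr1, carried by patrolling monocytes and resident macrophages, was at 12.6, 17.1 and 12.1 CPM in KO libraries, against 23.9, 14.4 and 20.8 CPM in WT libraries. Only WT replicate 2 lay within the KO range, and the log2 fold change of -0.50 (SE 0.20) did not pass (edgeR adjusted p = 0.1995, -0.35 without WT replicate 1 and -0.69 without WT replicate 2). Cxcl16, which also binds oxidized lipoprotein, was at 29.9, 37.4 and 37.2 CPM in KO and 41.6, 34.5 and 63.3 CPM in WT libraries (log2 fold change -0.42, SE 0.20, edgeR adjusted p = 0.283, -0.14 without WT replicate 3). Exons of Cxcl16 overlap those of Zmynd15 on the other strand by 552 bases, and Zmynd15 was also highest in WT replicate 3, at 15.2 CPM. The receptor of Cxcl16, the T cell gene Cxcr6, was at 4.09, 6.14 and 5.28 CPM in KO and 6.35, 3.71 and 9.14 CPM in WT libraries. The KO libraries lay within the range of the WT libraries.

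Xcl1, Cxcl9, Cxcl10 and Ccl5, which are linked to T or NK cells, were highest in WT replicate 3, as were 20 of all 36 tested members. Not every ligand linked to these cells was, and Cxcl11 and Cxcl12 are among those that were not. Xcl1, made by activated T and NK cells, was at 0.164, 1.01 and 0.477 CPM in KO libraries (7, 41 and 20 counts), against 1.59, 1.20 and 3.71 CPM in WT libraries (71, 47 and 135 counts). All KO libraries lay below all WT libraries, but the log2 fold change of -1.97 (SE 0.61) did not pass in edgeR (adjusted p = 0.124), while DESeq2 called it (adjusted p = 0.0108). With 1 library left out it ranged from -1.35 (without WT replicate 3) to -2.74 (without KO replicate 2). Its receptor gene Xcr1, of cross-presenting dendritic cells, was at 1.22, 1.21 and 1.74 CPM in KO and 1.57, 1.30 and 4.09 CPM in WT libraries. The whole of Xcl1 lies within Gm20743 on the other strand, with 98 bases of shared exon. Gm20743 was at 0.187, 0.247 and 0.239 CPM in KO and 0.561, 0.102 and 0.165 CPM in WT libraries.

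Cxcl9 and Cxcl10 are induced by interferon-gamma and attract T cells through Cxcr3. Cxcl9 was at 6.03, 6.88 and 6.04 CPM in KO libraries, against 9.78, 5.65 and 25.6 CPM in WT libraries. Cxcl10 was at 2.69, 3.38 and 2.22 CPM in KO libraries, against 4.49, 2.77 and 11.5 CPM in WT libraries. For both, WT replicate 3 was the highest library. WT replicate 2 lay below every KO library for Cxcl9 and within the KO range for Cxcl10. Their log2 fold changes of -1.11 (SE 0.45) and -1.17 (SE 0.45) did not pass (edgeR adjusted p = 0.210 and 0.196), and became -0.30 and -0.40 without WT replicate 3. The whole of Cxcl10 lies within Art3 on the other strand, of which 133 bases are shared exon. Art3 was at 183, 218 and 229.5 CPM in KO and 265, 264 and 233 CPM in WT libraries, highest in WT replicate 1. For Art3 all KO libraries lay below all WT libraries (log2 fold change -0.27, SE 0.11, edgeR adjusted p = 0.212), as for 11.1% of all tested genes. The part of Art3 reads in the counts of Cxcl10 was not tested. Cxcr3 was at 1.35, 1.58 and 2.12 CPM in KO and 2.51, 1.55 and 3.90 CPM in WT libraries (log2 fold change -0.65, SE 0.34, -0.28 without WT replicate 3). Ccl5, made by T cells and platelets, was at 2.27, 5.25 and 5.30 CPM in KO and 5.32, 3.81 and 12.1 CPM in WT libraries (-0.72, SE 0.44, -0.11 without WT replicate 3). It too was highest in WT replicate 3, and the groups overlapped. Ifng itself was under the filter, with 1, 4 and 3 counts in KO libraries and 16, 3 and 28 counts in WT libraries.

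T and NK cell markers were high in the same library as these ligands. Their summed level over 13 markers was 16.4, 30.4 and 27.5 CPM in KO libraries, against 41.4, 22.8 and 72.0 CPM in WT libraries, and all 11 tested markers were highest in WT replicate 3. None of the 13 was at 0 in all libraries, 0 passed edgeR's test, and 6 had an unadjusted p under 0.05, all lower in KO libraries. Of all tested genes, 8.62% were lower in KO libraries at this p. The part of these cells in the levels of Xcl1, Cxcl9, Cxcl10 and Ccl5 was not tested.

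**Figure D3:**
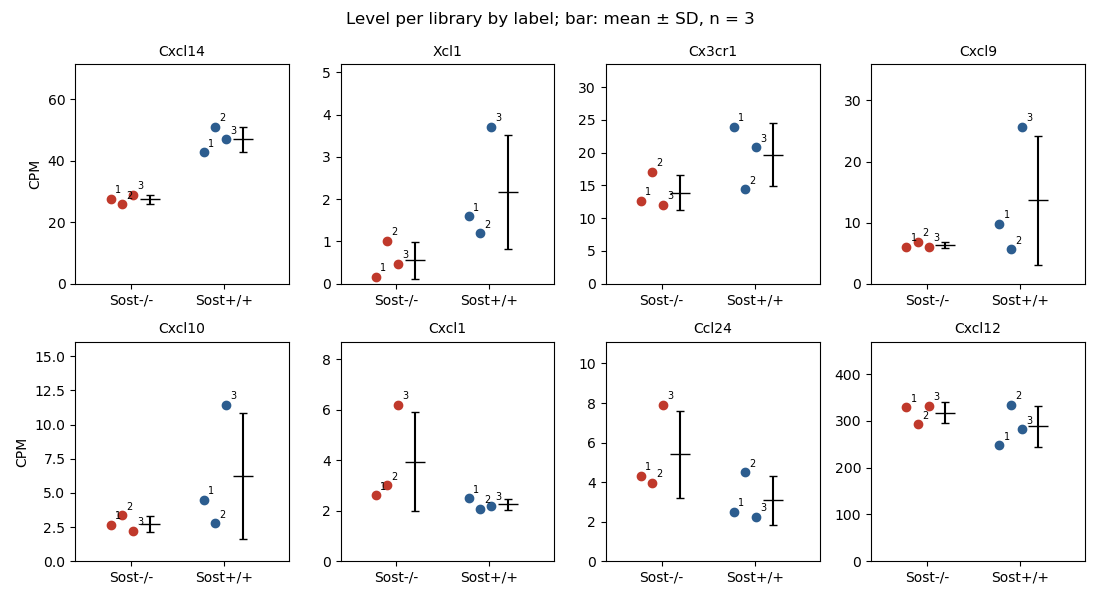
Level in CPM of 8 members in each library (points, numbered by replicate), KO left and WT right in each panel, with the mean ± SD (n = 3) beside the points. Only Cxcl14, Xcl1 and Cxcl1 show no overlap, WT replicate 3 stands above the other libraries in Xcl1, Cxcl9 and Cxcl10, and KO replicate 3 does so in Cxcl1 and Ccl24.

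Among the chemokines of neutrophils and eosinophils, the differences of Cxcl1, Cxcl2 and Ccl24 were smaller without KO replicate 3. Cxcl1 and Cxcl2 attract neutrophils through Cxcr2 and are induced through NF-kappaB. Cxcl1 was at 2.62, 3.01 and 6.21 CPM in KO libraries, against 2.49, 2.09 and 2.20 CPM in WT libraries. The groups did not overlap, but KO replicate 1 lay just above WT replicate 1, and the log2 fold change of 0.80 (SE 0.32, edgeR adjusted p = 0.207) became 0.32 without KO replicate 3. Cxcl2 was at 0.327, 0.493 and 2.22 CPM in KO and 0.202, 0.788 and 0.275 CPM in WT libraries (1.27, SE 0.76, -0.03 without KO replicate 3). Cxcl5 was at 0.600 ± 0.119 in KO and 0.573 ± 0.101 CPM in WT libraries (SD, n = 3 each). Their receptor gene Cxcr2 was under the filter, with 20, 8 and 7 counts in KO and 6, 6 and 16 counts in WT libraries. Of 9 neutrophil markers 8 were in the table and 3 were tested, with 0 called, and their summed level was 6.94, 6.09 and 7.09 CPM in KO and 5.52, 5.19 and 7.08 CPM in WT libraries.

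Ccl24 and Ccl11 are the eotaxins, which attract eosinophils through Ccr3. Ccl24 was at 4.32, 3.97 and 7.92 CPM in KO libraries, against 2.49, 4.50 and 2.25 CPM in WT libraries. WT replicate 2 lay within the KO range, and the log2 fold change of 0.81 (SE 0.34, edgeR adjusted p = 0.219) became 0.43 without KO replicate 3. Ccl11 was at 7.13 ± 0.472 in KO and 6.52 ± 1.16 CPM in WT libraries (SD, n = 3 each). Ccr3 held 1, 0 and 1 counts in KO libraries and 5, 5 and 9 counts in WT libraries (edgeR adjusted p = 0.140 without a filter). It met the minimum of 10 counts only through the WT libraries, so its lower KO counts are not read as a result. Mast cell markers were also highest in KO replicate 3, for all 7 of them, with a summed level of 55.8, 60.6 and 92.9 CPM in KO and 43.2, 51.9 and 40.7 CPM in WT libraries. So were 10 of 11 smooth muscle markers, with a summed level of 5008, 3988 and 6072 CPM in KO and 1495, 2656 and 1362 CPM in WT libraries. The part of either cell type in the levels of Cxcl1, Cxcl2 and Ccl24 was not tested.

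The ligands of monocytes and macrophages were close between the groups. Ccl6 and Ccl9, CC chemokines of rodents that signal through Ccr1, were the most abundant of them by CPM. Ccl6 was at 46.1, 74.8 and 76.8 CPM in KO libraries, against 63.0, 57.5 and 61.3 CPM in WT libraries. Ccl9 was at 32.9, 51.2 and 50.8 CPM in KO libraries, against 45.6, 38.8 and 48.2 CPM in WT libraries. KO replicate 1 was the lowest of the 6 libraries in both, and the other KO libraries the highest. Ccl8 was at 14.3, 22.6 and 20.8 CPM in KO and 19.5, 13.7 and 19.7 CPM in WT libraries. These 3 had log2 fold changes of 0.12 (SE 0.17), 0.02 (SE 0.17) and 0.13 (SE 0.19), each below its SE. The Ccr2 ligands Ccl2, Ccl7 and Ccl12, which draw inflammatory monocytes, together made 19.5 ± 5.30 in KO and 20.0 ± 6.75 CPM in WT libraries (SD, n = 3 each). Ccl2 was at 5.89, 6.81 and 8.62 CPM in KO and 6.71, 5.88 and 9.53 CPM in WT libraries. Ccl7 was at 4.07, 9.77 and 8.78 CPM in KO and 6.73, 5.16 and 10.8 CPM in WT libraries. Ccl12 was at 3.44, 6.24 and 4.89 CPM in KO and 4.53, 3.46 and 7.25 CPM in WT libraries. All 3 were highest in WT replicate 3, and the groups overlapped. Ccl3 and Ccl4, which attract monocytes and T cells, were under 1 CPM on average in both groups.

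The groups overlapped for the monocyte receptors Ccr2 and Ccr1. Ccr2 was at 11.2, 17.1 and 14.2 CPM in KO and 15.3, 8.80 and 17.6 CPM in WT libraries (log2 fold change 0.02, SE 0.24). Ccr1 was at 2.36, 4.54 and 4.34 CPM in KO and 2.69, 2.42 and 4.12 CPM in WT libraries (0.29, SE 0.30). WT replicate 2 was the lowest library for Ccr2 and WT replicate 3 the highest. Macrophage and monocyte markers summed to 978, 1336 and 1212 CPM in KO and 1065, 1011 and 1155 CPM in WT libraries. Of 17 tested, 0 passed edgeR's test, and 7 had an unadjusted p under 0.05, all higher in KO libraries. Of all tested genes, 11.6% were higher in KO libraries at this p.

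Other members are known mainly from lymphoid tissue and barrier surfaces. Ccl17 and Ccl22, dendritic cell ligands of Ccr4, were at 0.8105 ± 0.215 and 1.03 ± 0.266 CPM in KO and at 1.13 ± 0.610 and 1.70 ± 1.05 CPM in WT libraries (SD, n = 3 each). Cxcl13, the B cell attractant, was at 3.04, 2.22 and 5.71 CPM in KO and 3.79, 2.14 and 4.75 CPM in WT libraries. The receptor Ccr7, which leads dendritic cells to lymph nodes, was at 0.888, 0.839 and 1.53 CPM in KO and 0.897, 0.941 and 1.73 CPM in WT libraries. Its ligand genes Ccl19 and Ccl21a are listed at 0 in every library, as are Ccl21b, Ccl21c and Ccl27b. These genes have near-identical copies in the mouse genome. How reads that fit several copies were counted is not given in the sources used here, and a 0 is not read here as absence. Ccl27a, of the same kind, was at 7.93 ± 1.59 in KO and 6.59 ± 2.41 CPM in WT libraries and is uncertain for this reason. Ccl25, the ligand of Ccr9, was at 1.57 ± 0.484 in KO and 1.98 ± 0.297 CPM in WT libraries, with 204 bases of shared exon with Elavl1 on the other strand.

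The 11 members under the filter held at most 22 counts in any library. They were the ligands Ccl1, Ccl28, Cxcl11 and Cxcl17 and the receptors Cxcr2, Ccr3, Ccr4, Ccr6, Ccr8, Ccr9 and Ccr10. Ccl1, a T cell ligand of Ccr8, held 0 counts in every KO library, against 4, 2 and 6 counts in WT libraries. Set against a floor of 3 counts over the KO group, the WT level was 4.16-fold higher. This value leaves out counting error in the WT libraries, and the test without a filter did not pass (edgeR adjusted p = 0.136). Ccl1 met the minimum for members only through the WT libraries, so its lower KO counts are not read as a result. Ccr8 held 2, 3 and 5 counts in KO and 4, 4 and 22 counts in WT libraries, again highest in WT replicate 3. Cxcl11, the third Cxcr3 ligand, held 2, 3 and 1 counts in KO and 13, 1 and 7 counts in WT libraries. The annotation places a processed pseudogene on the other strand over 1582 bases of its exons, so these counts are uncertain.

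Members varied more between roots of the same group than the median gene did. The median spread within groups, the pooled SD of log2(CPM + 0.5), was 0.316 over the 19 members with a mean of at least 5 CPM and 0.130 over all 11290 such genes. Cxcl9 (0.752), Cxcl2 (0.734), Ccl5 (0.711), Cxcl10 (0.699) and Xcl1 (0.642) had the largest values among tested members, and Cxcr7 (0.140), Cxcl14 (0.105) and Cxcr4 (0.0681) the smallest. WT replicate 3 was the highest library for 20 of the 36 tested members (55.6%), 13 ligands and 7 receptors, against 18.1% of all tested genes. It was also highest for 6 of 8 pan-leukocyte markers, whose summed level was 196, 256 and 248 CPM in KO and 245, 197 and 342 CPM in WT libraries, and for 4 of 17 macrophage markers. The part of these cells in the order of libraries was not tested. Its total of 37023586 counts was the lowest of the 6.

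**Figure D4:**
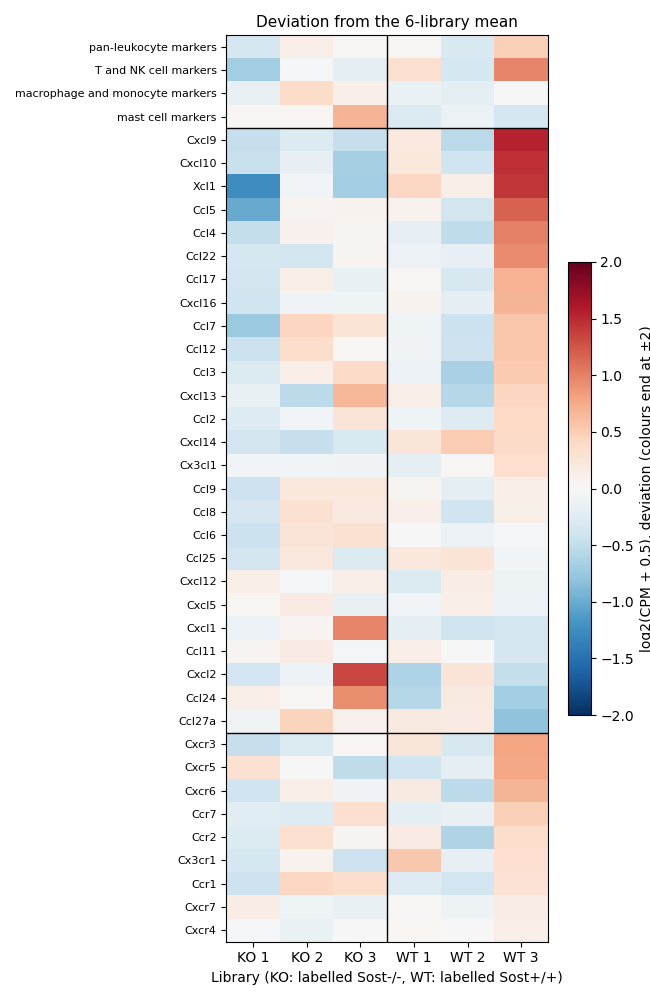
Deviation of log2(CPM + 0.5) from the mean of the 6 libraries (colour, red above and blue below) for 4 marker lists (top block, mean over markers), the tested ligands (middle) and 9 of the 10 tested receptors (bottom), ordered by WT replicate 3, with KO libraries left of WT libraries. Cxcl9, Cxcl10, Xcl1 and Ccl5 are darkest in WT replicate 3 together with the T and NK cell markers, Cxcl2, Cxcl1 and Ccl24 in KO replicate 3 together with the mast cell markers, and Cxcl14 and Xcl1 are blue in all KO and red in all WT libraries.

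Many members lie in gene clusters. On chromosome 11, 11 CC ligands lie between 82035571 and 83664683 (mm10), from Ccl2 to Ccl4, 18.3 to 19.9 Mb from Sost on the same chromosome. Of the 10 tested among them, 0 passed edgeR's test, 0 had an unadjusted p under 0.05, and DESeq2 called 0, where the shares over all tested genes were 2.55%, 20.2% and 7.61%. The receptor genes Ccr7 and Ccr10 lie closer to Sost, at 2.81 and 0.787 Mb. Ccr7 did not pass (log2 fold change -0.12, SE 0.37), and Ccr10 held 1, 12 and 13 counts in KO and 6, 6 and 6 counts in WT libraries. On chromosome 5, Cxcl5, Cxcl1 and Cxcl2 lie between 90759360 and 90905938, and Cxcl9, Cxcl10 and Cxcl11 between 92321347 and 92365485.

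The other genes of the pathway were read from 6 lists, of which 1, the chemoattractant genes outside the symbol rule, is given among the other observations. Of 41 tested genes of receptor signalling, 1 rose and 1 fell, where 2.18% of all tested genes were called higher and 0.371% lower. Gnai1, an inhibitory G protein subunit, rose to 19.8, 22.6 and 25.7 CPM in KO libraries, against 11.8, 13.1 and 10.2 CPM in WT libraries (log2 fold change 0.95, SE 0.13, edgeR adjusted p = 0.0151). Grk5, a kinase that desensitizes such receptors and is abundant in heart, fell to 89.1, 94.3 and 81.0 CPM in KO libraries, against 115, 118 and 115 CPM in WT libraries (-0.40, SE 0.09, edgeR adjusted p = 0.0496, not called with any single library left out, nor with upper quartile scaling, library size alone or limma-voom). Of 28 NF-kappaB and cytokine genes, 13 of the interferon-gamma axis and 19 of leukocyte adhesion, 0 passed edgeR's test. At an unadjusted p under 0.05 there were 5, 0 and 1. Over all tested genes the shares were 2.55% called and 20.2% at this unadjusted p. The genes of smallest p in these lists were the lymphotoxin gene Ltb (log2 fold change -0.86, SE 0.28, edgeR adjusted p = 0.137), the interferon-induced GTPase gene Gbp2 (-0.46, SE 0.23, edgeR adjusted p = 0.2999) and the junction gene Jam3 (0.26, SE 0.11, edgeR adjusted p = 0.215). Ltb was at 3.06, 4.76 and 3.51 CPM in KO libraries, against 7.58, 4.22 and 8.78 CPM in WT libraries, and Gbp2 at 38.7, 47.0 and 44.2 CPM in KO libraries, against 49.5, 42.4 and 86.8 CPM in WT libraries. WT replicate 3 was the highest library for 24 of 41 tested genes of receptor signalling, 16 of 28 of NF-kappaB and cytokines, 10 of 13 of the interferon-gamma axis and 9 of 19 of adhesion (58.5%, 57.1%, 76.9% and 47.4%), against 18.1% of all tested genes. List medians were -0.04 for receptor signalling, -0.09 for NF-kappaB, -0.23 for the interferon-gamma axis and -0.16 for adhesion, against 0.01 over all genes.

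Of 22 tested genes of chemokine-binding matrix and proteases, 3 rose and 0 fell, with a list median of 0.10. Over all tested genes 2.18% were called higher and 0.371% lower. WT replicate 3 was the highest library for 3 of the 22 (13.6%). The cell-surface proteoglycan gene Gpc3 rose to 39.7, 32.9 and 52.15 CPM in KO libraries, against 17.4, 24.9 and 11.8 CPM in WT libraries (log2 fold change 1.204, SE 0.25, edgeR adjusted p = 0.0448, ended by leaving out any library but WT replicate 2, and by a robust dispersion). Gpc6, another glypican, rose to 55.8, 45.8 and 56.6 CPM in KO libraries, against 28.0, 33.5 and 35.0 CPM in WT libraries (0.71, SE 0.12, edgeR adjusted p = 0.0235). Mmp9, a gelatinase that trims CXC chemokines, rose to 8.65, 8.14 and 9.43 CPM in KO libraries, against 3.70, 4.63 and 3.13 CPM in WT libraries (1.19, SE 0.17, edgeR adjusted p = 0.0151). The calls of Gnai1, Gpc6 and Mmp9 ended without WT replicate 1 and without KO replicate 3, where 0 and 10 genes were called in all. Smooth muscle markers were higher in the same KO libraries, as given above. Their part in these calls was not tested.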

How the data were processed

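RNA of 6 snap-frozen aortic roots was sequenced, with a library kit that keeps strand per the labels. As deposited, 1 table gives the count of reads for each gene symbol, in whole numbers. The other deposited table gives a normalized signal, each count divided by a factor that is constant within a library and equal to the size factor DESeq2 gives when rerun on the counts. DRAGEN, HTSeq, DESeq2 and the build mm10 are named, without versions, in the submitters' processing notes. The annotation, and any use of strand in counting, is not given in the sources used here, so reads of genes that overlap on opposite strands may not be told apart.

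Groups follow the genotype label alone, and replicates were numbered in accession order. No pair of libraries agreed within sampling noise (chi-square per degree of freedom 32.3 to 162). Genes were filtered with filterByExpr (minimum count 10, minimum total 15), scaled by TMM and fitted by the quasi-likelihood method of edgeR 4.0.16 (R 4.3.3), adjusted by Benjamini-Hochberg over all 15096 tested genes at a threshold of 0.05. As a check of the code, the fit was also run on counts simulated with the spread typical of a gene's level. Members varied more than the median gene, so this check does not bear on their tests. The SE is the absolute log2 fold change over the square root of F. It includes the spread between libraries, while the floor of 3 counts covers counting error in the KO group only. Exon lengths and positions come from GENCODE M21, and promoters and older symbols from RefSeq (GRCm38.p6). Alternatives were DESeq2 1.42.0, limma-voom (limma 3.58.1), other scalings and filters, a robust dispersion, the deposited signal (pseudocount 1), and each library left out.

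The members, the 6 function and 17 cell type lists, and the rule for named genes were chosen with earlier results of these data known. The rule gives values per library for members with a p under 0.05, the 5 most abundant ligands and receptors, the atypical receptors and the known partners of these, and of each function list the called genes or the 1 of smallest p. The values of 1 tested member are not reported here and are left out of the figures, but it stays in the counts and medians. Values per library of Ccl8, Cxcl2, Cxcl13, Ccr7, Ifng, Art3, Pf4, Cd74 and the members under the filter go beyond the rule and were chosen after their values were seen.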

Additional observations from a re-analysis of the deposited data

How the results depend on the processing

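Over all genes, 329 were called higher and 56 lower in KO libraries. With library size alone these were 728 and 27, and with DESeq2 753 and 405. Without a filter 92 were called lower. Library size alone moved the median log2 fold change of all genes to 0.13. With 1 library left out, 0 to 313 genes were called higher and 0 to 37 lower. The lowest counts came without WT replicate 1 (0 called, 2262 at an unadjusted p under 0.05) and without KO replicate 3 (10 called, 1714 at an unadjusted p under 0.05). Leaving out WT replicate 3 gave 81 calls higher, and leaving out KO replicate 2 gave 182. Calls lower were 36 or 37 without each of the other 4 libraries. Among the members, DESeq2 called 2 lower and leaving out a library gave 0 to 1. No setting called a member higher. Of the function lists, 4 genes were called higher, and 0 to 4 with a library left out. There, 1 gene was called lower, against 0 with upper quartile factors, 0 with library size alone, 0 with limma-voom, 2 with DESeq2 and 0 to 1 with a library left out. For these counts the cause was not tested.

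Cxcl14 kept its direction in all 16 alternatives, from -0.85 to -0.65, and its call in 14. Of 20 named genes, 9 kept the same call and direction in every alternative. The uncalled Ccl6 turned to -0.0037 without KO replicate 3 and reached 0.32 without KO replicate 1. Ccl8 turned to -0.029 without WT replicate 2 and -0.0035 without KO replicate 2, and reached 0.30 without KO replicate 1. Cx3cl1 turned to 0.0047 without WT replicate 3 and reached -0.26 without WT replicate 1. No paired analysis was possible because the labels give no replicate numbers. With 3 roots a group, members below about 1 CPM rest on few counts, and those under the filter on at most 22 in any library.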

Other observations

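Some chemoattractants and their receptors carry symbols outside the rule, and of 13 such genes tested 0 passed edgeR's test. At an unadjusted p under 0.05 there were 4, where 20.2% of all tested genes were. Rarres2 encodes chemerin, a chemoattractant of macrophages and dendritic cells that is made by adipose and stromal cells. Rarres2 was at 113, 154 and 154 CPM in KO libraries, against 106, 105 and 76.8 CPM in WT libraries. All KO libraries lay above all WT libraries, with a log2 fold change of 0.54 (SE 0.16, edgeR adjusted p = 0.111), and DESeq2 called it (adjusted p = 0.0193). The summed level of 7 adipocyte markers was 582, 1352 and 994 CPM in KO libraries and 795, 708 and 419 CPM in WT libraries, and their part in the level of Rarres2 was not tested. The chemerin receptor gene Cmklr1 was at 50.7 ± 3.40 CPM in KO and 53.5 ± 8.35 CPM in WT libraries (SD, n = 3 each), and Ccrl2, which binds chemerin without signalling, at 12.7 ± 1.76 CPM in KO and 12.4 ± 0.932 CPM in WT libraries (SD, n = 3 each). Neither differed by more than its spread.

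Pf4, the platelet chemokine Cxcl4, was at 31.5, 43.4 and 43.0 CPM in KO libraries, against 37.5, 29.7 and 28.5 CPM in WT libraries. The groups overlapped (log2 fold change 0.30, SE 0.15, edgeR adjusted p = 0.293). Cd74, the invariant chain and a receptor of Mif, was at 253, 351 and 417 CPM in KO libraries, against 479, 362 and 930.4 CPM in WT libraries, again with its highest level in WT replicate 3 (log2 fold change -0.79, SE 0.32, edgeR adjusted p = 0.209). Mif itself was at 63.4 ± 4.12 CPM in KO and 62.3 ± 5.05 CPM in WT libraries (SD, n = 3 each).

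Of the cell type lists not described above, edgeR called 1 marker higher in each of the dendritic cell (Cacnb3), lymphatic (Mmrn1), pericyte (Cspg4) and Schwann cell lists (Prx). These lists had 9, 6, 6 and 6 tested markers, and 2.18% of all tested genes were called higher. At an unadjusted p under 0.05 in edgeR there were 3, 3, 2 and 4, all higher in KO libraries except 1 dendritic cell marker. Over all tested genes this share was 20.2%. The median log2 fold changes of these lists were -0.36 (9 tested dendritic cell markers), 0.26, 0.21 and 0.47 in this order. The dendritic cell markers summed to 80.9, 87.9 and 81.9 CPM in KO and 81.1, 88.2 and 118 CPM in WT libraries, and 6 of the 9 were highest in WT replicate 3. The edgeR test called 0 among pan-leukocyte, B and plasma cell, platelet, blood endothelial, fibroblast, adipocyte and erythroid markers. In this order, 0 of 8, 0 of 7, 0 of 4, 1 of 9, 4 of 10, 6 of 7 and 0 of 3 tested markers were at an unadjusted p under 0.05. Over all tested genes 20.2% were. The blood endothelial marker was lower in KO libraries, and the fibroblast and adipocyte markers were all higher.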
